A study of Homo sapiens with 9 samples.

Results

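The transcripts described here are those of 31 genes of glycolysis and the pentose phosphate pathway, chosen by their symbols as members of these pathways, with no measured value in the rule, though earlier results of these data were known when the list was drawn up. They are 31 of the 60675 gene identifiers in the count table, and 30 of them are among the 15982 genes with enough counts to be tested. They cover glucose transporters, the enzymes from hexokinase to lactate dehydrogenase, lactate export, the kinases that gate pyruvate entry into mitochondria, and the oxidative and non-oxidative branches of the pentose phosphate pathway.

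RNA was sequenced from MM.1S, an established human multiple myeloma cell line, after 24 h with EGCG (epigallocatechin gallate), a polyphenol abundant in green tea. There were 3 libraries each at 0 µM (control cells), 40 µM and 80 µM. All cells were MM.1S grown in RPMI medium with fetal bovine serum, and no other agent is named in the labels. The study asked how EGCG acts on myeloma cells as they undergo apoptosis. MM.1S is a single cell line, and the labels do not say whether the 3 libraries of a dose came from separate cultures, so the p-values measure only the spread between these libraries.

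Glycolysis splits glucose into pyruvate in the cytosol and yields ATP and NADH, and lactate dehydrogenase turns pyruvate into lactate and restores NAD+. The pentose phosphate pathway leaves glycolysis at glucose-6-phosphate: its oxidative branch makes NADPH, and its reversible non-oxidative branch exchanges sugar phosphates with glycolysis and supplies ribose for nucleotides. Many tumour cells, myeloma cells among them, run glycolysis at a high rate even with oxygen present, and several glycolytic genes are known targets of the hypoxia-inducible factors and of MYC.

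Library totals ran from 12674490 to 16427343 counts. Mitochondrially encoded genes took 10.1% to 10.9% of counts at 80 µM, 8.47% to 11.5% at 40 µM and 7.60% to 8.51% in control cells. The 6 plasma cell markers examined, such as SDC1 and XBP1, were all detected, and their summed level was 3970 to 4460 CPM (counts relative to the TMM-scaled library total) at 80 µM, against 3840 to 3910 CPM in control cells. These markers did not move alike: at 80 µM IRF4 and SLAMF7 rose, while SDC1 averaged 586 CPM at 80 µM and 928 CPM in control cells (log2 difference -0.66, adjusted p = 0.0968). At 40 µM SDC1 averaged 445 CPM (log2 difference from control cells -1.06, adjusted p = 0.0863), and at both doses its libraries lay below the control libraries without overlap. The mature B cell marker CD22 and the T and NK cell markers CD3D and NKG7 were at 0 in every library. The 4 T and NK cell markers summed to 1.56 to 2.42 CPM at 80 µM, 2.55 to 3.91 CPM at 40 µM and 4.29 to 5.28 CPM in control cells, and 1 of them, CD3E, fell at 80 µM. The 4 monocyte and macrophage markers stayed under 0.9 CPM at every dose, and the 4 stromal markers, with COL1A2 at 0, summed to 0.892 to 1.59 CPM at 80 µM and 1.62 to 3.9 CPM in control cells. The part of the mitochondrial share and of these markers in the results was not tested; with the mitochondrially encoded genes left out, the counts of called members were the same. The replicate 2 library at 40 µM stood apart from the others on the second principal component, and without it no member was called at 40 µM either. Control replicate 3 was the highest of the control libraries for 20 of the 30 tested members, and without it 13 members were called at 80 µM, 2 higher and 11 lower.

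Transcript levels differed widely between the steps in control cells. On the authors' FPKM scale, which divides by gene length and so allows genes to be compared, 28 of the 31 members exceeded 1 FPKM in control cells. The 6 above 100 FPKM were TPI1, GAPDH, PGK1, PGAM1, ENO1 and LDHB. The gene lengths behind this FPKM differ unevenly from GENCODE 29 exonic lengths. They were 0.98 times as long for RPIA, 1.02 for HK2, 1.18 for PGAM1, 2.54 for LDHA and 3.71 for RPE. The order of genes therefore depends on the lengths used. Per exonic length, ALDOA (174) and LDHA (168) also passed 100 in control cells and stood above PGAM1 (146), and the glucose transporters summed to 12.3 ± 2.34. GAPDH, lactate dehydrogenase and enolase led the steps with either length. GAPDH, which oxidises glyceraldehyde-3-phosphate, stood at 510 ± 68.8 FPKM (SD, n = 3). Lactate dehydrogenase followed at 247 ± 4.2 FPKM and enolase at 214 ± 16.9 FPKM, each summed over the listed isozymes. On the authors' scale the glucose transporters summed to 4.4 ± 0.713 FPKM and the monocarboxylate transporters, which export lactate, to 1.34 ± 0.103 FPKM. PFKP, the platelet phosphofructokinase, was the 1 member left untested: it had 1 to 9 counts in each library.

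Of 4 members shown as examples, LDHA, PGK1 and TPI1 fell at 80 µM and GAPDH was not called. Their promoters are shown because the glycolytic genes are known for the HIF and MYC sites in this region. Each runs from 250 bases before to 50 bases after the RefSeq gene start, GRCh38.p14, plus strand. Capitals mark the letters ACGTG, a form of the core of the hypoxia response element, read on either strand (CACGT on the printed strand). Other forms of that core are not marked or counted. A CACGTG in capitals is also the core of the E-box that MYC binds. LDHA lies at chr11:18394313-18394612, PGK1 at chrX:78103998-78104297, TPI1 at chr12:6867281-6867580 and GAPDH at chr12:6535014-6535313.
LDHA: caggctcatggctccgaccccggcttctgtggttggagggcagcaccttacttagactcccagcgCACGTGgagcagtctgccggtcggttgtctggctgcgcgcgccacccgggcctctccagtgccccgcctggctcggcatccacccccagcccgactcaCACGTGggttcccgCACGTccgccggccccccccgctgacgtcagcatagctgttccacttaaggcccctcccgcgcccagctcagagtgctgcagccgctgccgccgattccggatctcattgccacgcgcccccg
PGK1: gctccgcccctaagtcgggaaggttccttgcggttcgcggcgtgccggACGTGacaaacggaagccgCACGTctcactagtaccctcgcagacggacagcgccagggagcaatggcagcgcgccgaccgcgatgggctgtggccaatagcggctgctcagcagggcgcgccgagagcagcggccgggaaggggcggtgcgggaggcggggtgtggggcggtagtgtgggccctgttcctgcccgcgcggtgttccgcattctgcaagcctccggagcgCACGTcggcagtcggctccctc
TPI1: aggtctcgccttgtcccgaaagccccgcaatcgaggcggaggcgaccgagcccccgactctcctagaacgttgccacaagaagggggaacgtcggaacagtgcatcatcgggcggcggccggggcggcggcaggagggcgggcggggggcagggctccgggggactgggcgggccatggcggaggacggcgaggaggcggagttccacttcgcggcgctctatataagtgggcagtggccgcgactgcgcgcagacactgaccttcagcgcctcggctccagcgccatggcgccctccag
GAPDH: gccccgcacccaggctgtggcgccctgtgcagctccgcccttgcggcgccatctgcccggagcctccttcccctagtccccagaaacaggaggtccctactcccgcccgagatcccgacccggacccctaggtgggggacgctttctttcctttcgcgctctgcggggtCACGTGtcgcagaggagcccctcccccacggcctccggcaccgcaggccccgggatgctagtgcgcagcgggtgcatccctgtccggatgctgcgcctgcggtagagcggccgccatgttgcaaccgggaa
The LDHA window held 3 such stretches, of which 2 were E-boxes, the PGK1 window held 3 with no E-box, GAPDH 1 with an E-box, and the TPI1 window shown none. Some genes have several RefSeq starts and so several windows: a second TPI1 window, chr12:6867855-6868154, held 1 stretch, and a second LDHA window, chr11:18396101-18396400, held none. A gene is counted as holding the letters if any of its windows does. The letters were present in the promoters of 16 of the 29 members with a RefSeq entry (55.2%). Over all 27305 genes with such an entry, whether or not these cells express them, the letters were present in 24.9%. They were present in 8 of the 14 members that fell at 80 µM (57.1%) and in 8 of the 15 other members (53.3%). The members have 55 windows for 29 genes and all 27305 genes have 35116, so the count per gene favours the members. Counted by window, the letters were present in 36.4% of the members' windows, against 21.4% of all windows, and in 43.5% of the windows of the members that fell, against 31.2% of those of the other members. These are descriptions of the letters in a window and say nothing about binding.

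At 80 µM, 15 of the 30 tested members differed from control cells: 14 fell and 1, the glucose transporter SLC2A3, rose. That is 50% of the members, where 34.9% of all tested genes were called, 17.4% higher and 17.5% lower. In the 16 tested enzymes from hexokinase to lactate dehydrogenase, 12 fell and none rose. In the 6 pentose phosphate members 1 fell, RPIA, and in the 8 transporters and regulators 1 rose and 1 fell, PDK3. The median log2 fold change was -0.49 over the members, -0.72 over those enzymes and 0.08 over the pentose phosphate members, beside 0.00 over all tested genes. The groups did not overlap for 16 of the 30 members (53.3%), against 49.9% of all tested genes. A call here is an adjusted p under 0.05 in edgeR's quasi-likelihood test over all tested genes, and every fold change and p-value below is from that fit. Because these are bulk samples, fewer cells carrying a transcript and less of the transcript per cell cannot be told apart.

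**Figure D1:**
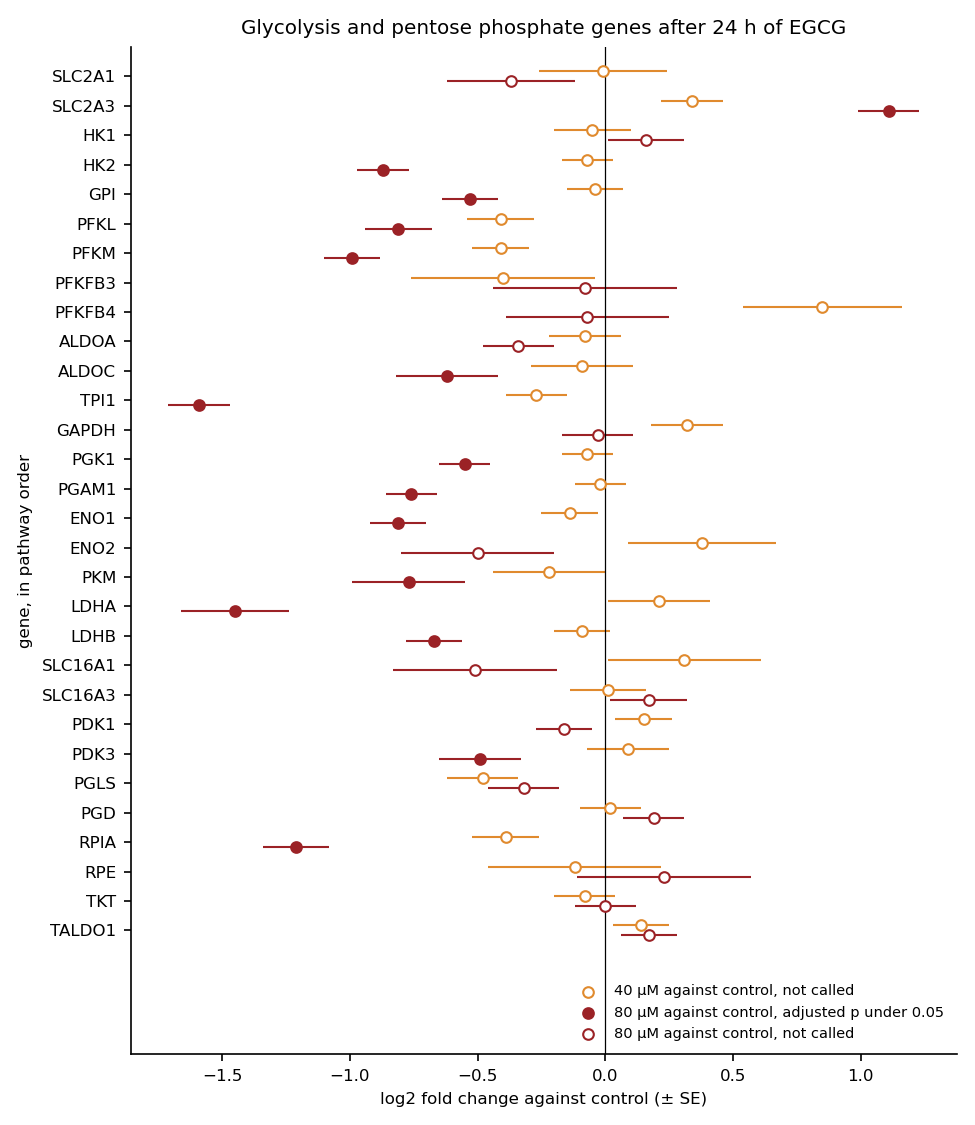
Log2 fold change against control cells, with its standard error (SE, n = 3 per dose), for the 30 tested members in pathway order, at 40 µM in orange and at 80 µM in dark red. Filled points are called. At 40 µM the points lie between -0.48 and 0.85 with none filled, and at 80 µM 15 are filled, of which 14 lie left of 0 and SLC2A3 lies right of it.

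At the entry to the pathway, SLC2A3 (GLUT3), the high-affinity glucose transporter, was the member that rose. Its CPM was 16.8, 20.4 and 18.5 in control cells, 22.2, 23.8 and 24.6 at 40 µM, and 43.1, 38.0 and 38.8 at 80 µM. The 3 dose groups did not overlap. The log2 fold change was 1.11 ± 0.12 at 80 µM (adjusted p = 9.96e-05). SLC2A1 (GLUT1), the ubiquitous transporter, averaged 34.5 CPM at 80 µM and 44.6 CPM in control cells, with overlapping groups and a log2 difference of -0.37 whose 95% interval ran from -0.93 to 0.19. Of the FPKM of these 2 transporters, SLC2A3 held 33.1% ± 8.1 in control cells, 38.1% ± 5.3 at 40 µM and 57.2% ± 7.3 at 80 µM (SD, n = 3). With GENCODE 29 exonic lengths the share was 25.2%, 29.4% and 47.6% at these doses, so which transporter is the more abundant at 80 µM depends on the length used.

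Glucose is then trapped by hexokinase. HK2, the inducible isozyme common in tumours, fell. Its CPM was 110.5, 98.3 and 103 in control cells, 104, 95.0 and 98.4 at 40 µM, and 56.9, 59.3 and 54.3 at 80 µM. At 80 µM the log2 fold change was -0.87 ± 0.10 (adjusted p = 0.000109), and the groups did not overlap. HK1, the housekeeping isozyme, averaged 28.2 CPM at 80 µM and 25.3 CPM in control cells (log2 difference 0.16, 95% interval -0.18 to 0.49). The HK2 share of hexokinase FPKM was 88.6% ± 0.15 in control cells, 88.4% ± 2.2 at 40 µM and 79.1% ± 2.4 at 80 µM. GPI, which converts glucose-6-phosphate to fructose-6-phosphate, had 570.5, 531 and 661 CPM in control cells, 542, 635 and 542 at 40 µM, and 391, 400.3 and 432 at 80 µM. The 80 µM libraries all lay below the control libraries, and GPI fell by 0.53 ± 0.11 on the log2 scale (adjusted p = 0.0046).

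Phosphofructokinase makes the committed step, and both of its expressed genes fell. PFKL, the liver-type subunit, had 411, 401 and 511 CPM in control cells, 378, 286 and 330.4 at 40 µM, and 241, 256 and 260.2 at 80 µM. PFKM, the muscle-type subunit, had 127, 138 and 164 CPM in control cells, 112, 108 and 103 at 40 µM, and 71.6, 73.5 and 70.4 at 80 µM. In both genes the 3 dose groups did not overlap. The log2 fold change at 80 µM was -0.81 ± 0.13 for PFKL (adjusted p = 0.000958) and -0.99 ± 0.11 for PFKM (adjusted p = 0.000109). PFKM shares exons with SENP1 on the opposite strand, whose counts came to 40.6% of its own; whether counting used strand is not stated in the labels. PFKFB3 and PFKFB4, which set the level of the activator fructose-2,6-bisphosphate, had log2 differences of -0.08 (95% interval -0.88 to 0.73) and -0.07 at 80 µM, both with overlapping groups.

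Aldolase splits the sugar in the middle of the pathway. ALDOC, its minor isozyme here, fell by 0.62 on the log2 scale (adjusted p = 0.0332) with 10.3, 8.79 and 11.5 CPM at 80 µM, against 15.9, 11.5 and 19.8 CPM in control cells. Its groups overlapped, and the call was lost when 1 library was left out in 4 cases. ALDOA, the main isozyme, averaged 544 CPM at 80 µM and 688 CPM in control cells, a log2 difference of -0.34 (adjusted p = 0.0794, 95% interval -0.64 to -0.04). It shares exons with AC093512.2 on the same strand, whose counts came to 17.2% of its own. TPI1, which interconverts the resulting triose phosphates, lies on chromosome 12 (6867119 to 6870948, plus strand) and had the largest fall of the members by log2 fold change, except without 80 µM replicate 1, when LDHA stood at -1.73 and TPI1 at -1.66. It had 622, 587 and 779.8 CPM in control cells, 578, 522 and 548 at 40 µM, and 241, 205 and 216 at 80 µM. The 3 groups did not overlap. Its level at 80 µM was 33.3% of that in control cells (log2 fold change -1.59 ± 0.12, adjusted p = 1.41e-05). Reads of 4 pseudogene copies came to 10.3% to 18.3% of the TPI1 counts, and these copies held 1458 counts at 80 µM and 3185 in control cells, so TPI1 is uncertain to the extent that reads were split between them.

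GAPDH, the most abundant member, was not called at any dose. It had 2862, 2937 and 3947 CPM in control cells, 3484, 4573 and 4072 at 40 µM, and 3286, 3012 and 3238 at 80 µM. The groups at 80 µM and in control cells overlapped, with a log2 difference of -0.03 whose 95% interval ran from -0.35 to 0.29. GAPDH is widely used as a reference gene. Its share of all counts was 0.322% in control cells, 0.398% at 40 µM and 0.321% at 80 µM. At 40 µM its log2 difference from control cells was 0.32 (adjusted p = 0.255). Reads of its 62 pseudogene copies came to 1.96% to 3.05% of its counts.

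Of the enzymes after GAPDH, PGK1, PGAM1, ENO1 and PKM fell at 80 µM, and ENO2 was not called. PGK1, which makes the pathway's first ATP, had 786, 784 and 943 CPM in control cells, 792, 818 and 791 at 40 µM, and 604, 541 and 567 at 80 µM. PGAM1, which moves the phosphate group, had 367, 343 and 421 CPM in control cells, 366, 385 and 362 at 40 µM, and 233, 214 and 219 at 80 µM. ENO1, the main enolase, had 1672, 1632 and 2022 CPM in control cells, 1671, 1597 and 1577 at 40 µM, and 1058, 949 and 1037 at 80 µM. In each of the 3 genes all 80 µM libraries lay below both other groups, with log2 fold changes of -0.55 ± 0.10 for PGK1 (adjusted p = 0.002), -0.76 ± 0.10 for PGAM1 (adjusted p = 0.000285) and -0.81 ± 0.11 for ENO1 (adjusted p = 0.000309). ENO2, the neuronal enolase, varied more: it averaged 106 CPM at 80 µM and 150.3 CPM in control cells, a log2 difference of -0.50 (95% interval -1.16 to 0.15). PKM, which makes pyruvate, had 478, 473 and 866 CPM in control cells, 507, 494 and 561 at 40 µM, and 435, 317 and 316 at 80 µM. Control replicate 3 stood well above the other control libraries; the call (log2 fold change -0.77 ± 0.22, adjusted p = 0.023) was lost without that library, when the log2 fold change was -0.44, and also without 80 µM replicate 2 or 80 µM replicate 3. Gene counts do not separate the spliced isoforms of PKM.

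Lactate dehydrogenase closes fermentative glycolysis. LDHA, the subunit that favours lactate production, lies on chromosome 11 (18394388 to 18408425, plus strand) and had 896, 1133 and 1124 CPM in control cells, 1174, 1359 and 1119 at 40 µM, and 519, 362 and 274 at 80 µM. Its 80 µM libraries lay far below both other groups, and its level there was 36.6% of that in control cells (log2 fold change -1.45 ± 0.21, adjusted p = 0.000471). Reads of 6 LDHA pseudogene copies came to 3.19% to 6.82% of the LDHA counts. LDHB, the subunit that favours pyruvate formation, had 816, 749.6 and 811 CPM in control cells, 688, 826 and 717 at 40 µM, and 559.9, 454 and 477 at 80 µM, and fell by 0.67 (adjusted p = 0.00118). The LDHA share of lactate dehydrogenase FPKM was 23.3%, 29.5% and 27.7% in control cells, 32.1%, 31.3% and 30.2% at 40 µM, and 20.4%, 18.0% and 13.7% at 80 µM. These groups did not overlap. The shares of SLC2A3, HK2 and LDHA kept their direction when FPKM was replaced by counts over GENCODE 29 exonic length, but their size moved. The LDHA share was then 38.9% in control cells, 44.0% at 40 µM and 26.7% at 80 µM.

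**Figure D2:**
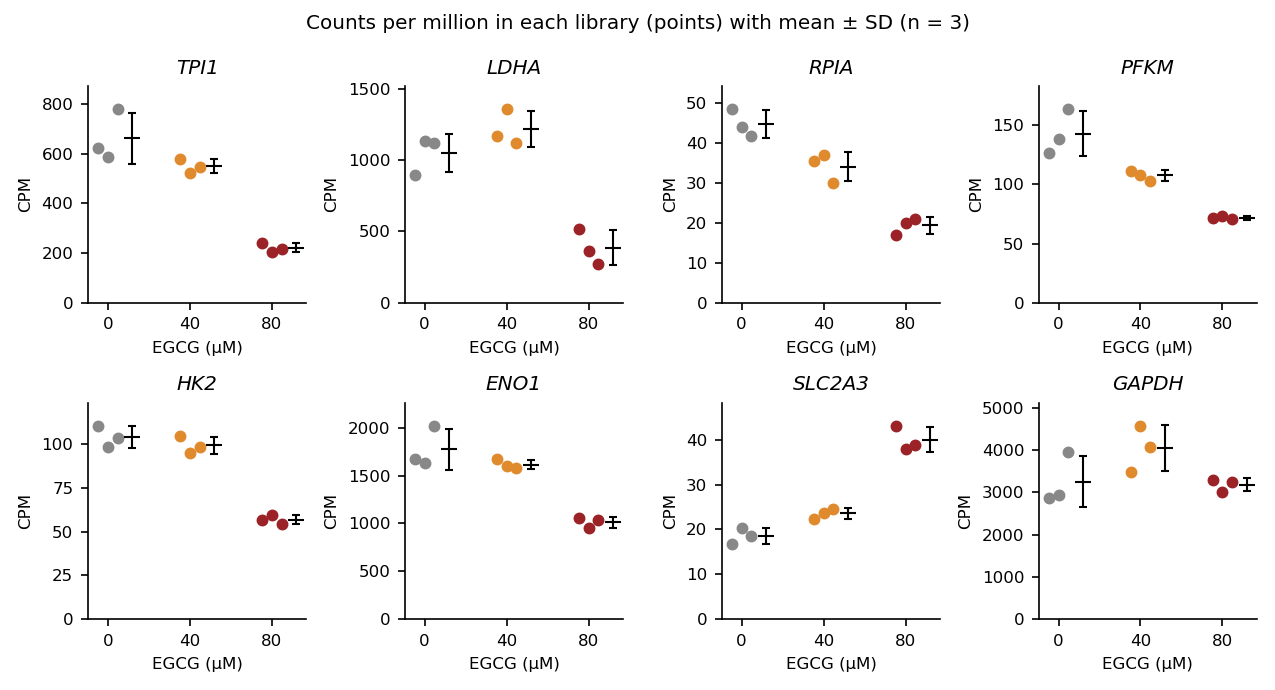
CPM by EGCG dose for 8 members, each library a point, with the group mean and SD (n = 3) beside them. TPI1, LDHA, RPIA, PFKM, HK2 and ENO1 have all 80 µM points below the other groups, SLC2A3 has them above, and the GAPDH points of 80 µM lie among those of the control cells.

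Of the lactate exporters and the kinases at the pyruvate gate, PDK3 was the member called. The lactate exporter SLC16A3 (MCT4) had a log2 difference of 0.17 (95% interval -0.15 to 0.49); it shares exons with CSNK1D on the opposite strand, whose counts were 685% of its own. SLC16A1 (MCT1) had 14 to 39 counts per library and a log2 difference of -0.51 (adjusted p = 0.246). It shares exons with SLC16A1-AS1 on the opposite strand, whose counts came to 40.5% of its own. PDK1, the more abundant of the listed pyruvate dehydrogenase kinases, which hold pyruvate back from mitochondria, had a log2 difference of -0.16 (95% interval -0.40 to 0.09). PDK3 had 23.8, 33.7 and 28.2 CPM in control cells, 25.4, 32.5 and 33.1 at 40 µM, and 19.0, 22.9 and 19.2 at 80 µM. Its 80 µM libraries lay below both other groups (log2 fold change -0.49 ± 0.16, adjusted p = 0.0409), though 8 of 19 alternative settings lost the call. PDK2, a kinase of this step that is not a member, also fell at 80 µM (log2 fold change -0.48, adjusted p = 0.0254). It averaged 47.7 CPM in control cells, 31.9 at 40 µM and 34.2 at 80 µM.

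Of the pentose phosphate members, RPIA, which turns ribulose-5-phosphate into the ribose-5-phosphate used for nucleotides, fell. RPIA, on chromosome 2 (88691644 to 88750935, plus strand), had 48.5, 44.1 and 41.6 CPM in control cells, 35.5, 36.9 and 29.9 at 40 µM, and 16.96, 20.1 and 21.0 at 80 µM. The 3 groups did not overlap, and the log2 fold change at 80 µM was -1.21 ± 0.13 (adjusted p = 0.000108). The other 5 were not called. For TKT and TALDO1, which carry the non-oxidative exchange, the log2 differences were 0.00 (95% interval -0.27 to 0.27) and 0.17 (-0.08 to 0.41). For PGD and PGLS, of the oxidative branch, they were 0.19 (-0.07 to 0.44) and -0.32 (adjusted p = 0.109). For RPE the difference was 0.23 (-0.53 to 0.98), with a control library at 7.20 CPM beside others at 23.3 and 20.9. RPE shares exons with KANSL1L on the opposite strand, whose counts came to 90.9% of its own.

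At 40 µM no member was called, where 2.3% of all tested genes were (1.49% higher and 0.813% lower). Of the 30 members 7 had an unadjusted p under 0.05 in edgeR (23.3%, against 19.9% of all tested genes). DESeq2 called 1 member, PFKM, where it called 5.37% of all tested genes, and limma-voom called 0, where it called 2.19%. The smallest adjusted p was 0.0816, for PFKM, whose log2 difference from control cells was -0.41 ± 0.11. The groups did not overlap for 7 of the 30 members (23.3%, against 24.3% of all tested genes): PFKL, PFKM, TPI1, PGLS and RPIA lay lower at 40 µM than in control cells, and SLC2A3 and PFKFB4 higher. The 14 members that fell at 80 µM had log2 differences of -0.41 to 0.21 at 40 µM, with a median of -0.09. This comparison and that of 80 µM share the control libraries.

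At 80 µM against 40 µM, 11 members were lower and SLC2A3 higher, so that 12 of 30 were called (40.0%), where 23% of all tested genes were (10.9% higher and 12.1% lower). The 11 were HK2, GPI, PFKM, TPI1, PGK1, PGAM1, ENO1, LDHA, LDHB, PDK3 and RPIA. LDHA had the largest of these changes, -1.66 ± 0.21 (adjusted p = 0.000709), followed by TPI1 at -1.32 ± 0.12 (adjusted p = 0.000201), and SLC2A3 rose by 0.76 ± 0.12 (adjusted p = 0.00178). For 20 of 30 members the libraries of these 2 doses did not overlap (66.7%, against 41.6% of all tested genes). GAPDH averaged 3179 CPM at 80 µM and 4043 CPM at 40 µM, a log2 difference of -0.35 (adjusted p = 0.111); without control replicate 3, which enters only through the shared spread and scaling, it was called (-0.34, adjusted p = 0.0369). The GPI call was lost without 80 µM replicate 2 (adjusted p = 0.0521), and the PDK3 call when any 1 of 4 libraries was left out.

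Summed by step on the FPKM scale, phosphofructokinase stood at 38.3 ± 3.2 in control cells, 28.6 ± 3.56 at 40 µM and 21.6 ± 0.96 at 80 µM (SD, n = 3). Triose phosphate isomerase stood at 107 ± 11.3, 88.2 ± 6.49 and 36.3 ± 2.45 FPKM at the same doses, and lactate dehydrogenase at 247 ± 4.2, 244 ± 16.9 and 140.0 ± 18.0. The non-oxidative pentose phosphate genes, which are different enzymes and not isozymes, summed to 103 ± 4.99, 100 ± 4.44 and 97.7 ± 1.77 FPKM. Per GENCODE 29 exonic length this sum was 165, 164 and 165. Within it, RPIA averaged 24.7 FPKM in control cells and 10.8 at 80 µM. The FPKM means of RPE, TKT and TALDO1 were not lower at 80 µM. Together the 31 members took 0.938% ± 0.0419 of all counts at 80 µM and 1.28% ± 0.109 in control cells.

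**Figure D3:**
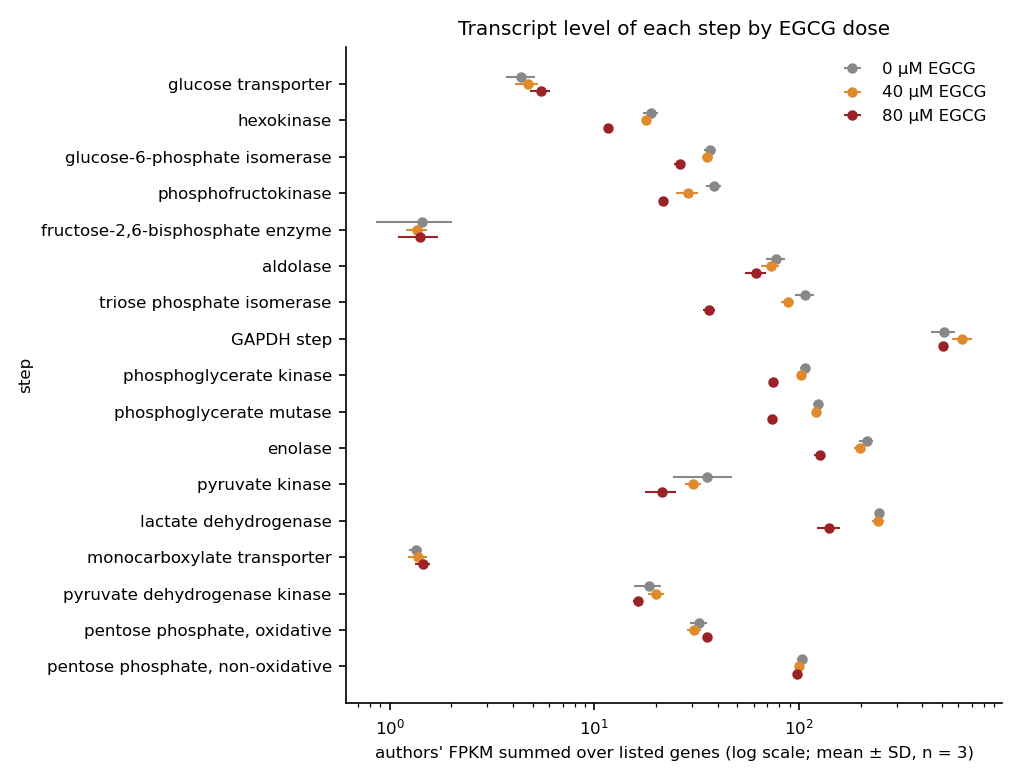
The authors' FPKM summed over the listed genes of each step (log axis), mean and SD over 3 libraries, for control cells, 40 µM and 80 µM. Triose phosphate isomerase shows the widest separation of 80 µM from the other doses, and at the GAPDH step the 80 µM and control means nearly coincide.

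**Figure D4:**
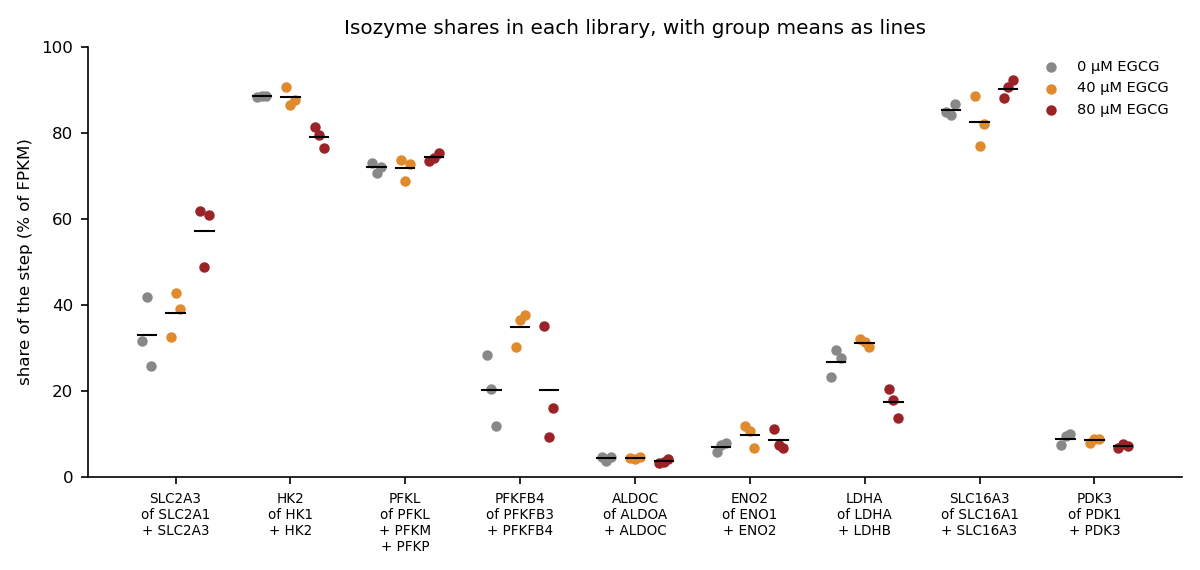
Share of a step's FPKM held by 1 isozyme in each library, as points, with group means as lines, at 0, 40 and 80 µM. SLC2A3 is higher and HK2 and LDHA are lower at 80 µM, and the ALDOC share stays under 5% throughout.

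Genes that neighbour these pathways were followed in 4 lists of 52 genes, of which 37 were tested. At 80 µM 5 rose (13.5%, against 17.4% of all tested genes) and 12 fell (32.4%, against 17.5%). PCK2, the mitochondrial enzyme that makes phosphoenolpyruvate, rose by 3.08 ± 0.22 on the log2 scale, with a mean of 36.1 CPM at 80 µM and 4.27 CPM in control cells (adjusted p = 8.31e-06). At 40 µM PCK2 was the 1 gene of these lists called, at 1.88 ± 0.22 (adjusted p = 0.00173); that is 2.7% of the 37, against 2.3% of all tested genes. Among the 12 tested genes of pyruvate entry 2 rose and 4 fell. The pyruvate carrier subunit MPC2 fell by 0.52 (adjusted p = 0.0103), while its partner MPC1 had a log2 difference of 0.47 (adjusted p = 0.052). Of pyruvate dehydrogenase, the binding component PDHX rose by 0.54 (adjusted p = 0.011), and the catalytic subunits PDHA1 and PDHB fell by 0.34 (adjusted p = 0.0132) and by 0.51 (adjusted p = 0.0127). Among the 8 pentose phosphate neighbours 2 rose and 2 fell: TIGAR, which lowers fructose-2,6-bisphosphate, had 31.4, 29.5 and 28.3 CPM at 80 µM, against 16.9, 16.7 and 9.34 CPM in control cells, and rose by 1.05 ± 0.20 (adjusted p = 0.00232). PRPS2, which makes phosphoribosyl pyrophosphate, fell by 1.19 (adjusted p = 0.00603), and SHPK, the sedoheptulose kinase, fell by 0.67 (adjusted p = 0.016). Of the 8 tested genes of glycogen and glucose-6-phosphate handling 1 rose, the branching enzyme GBE1, by 0.44 (adjusted p = 0.0138), and 3 fell, among them the phosphorylase PYGB by 0.55 (adjusted p = 0.00414) and the phosphopentomutase PGM2 by 0.58 (adjusted p = 0.0199). The last list held other glycolytic isozymes, related enzymes, transporters and a transporter chaperone. Of its 9 tested genes none rose and 3 fell. BPGM, which makes bisphosphoglycerate, fell by 0.59 (adjusted p = 0.0226) and the transporter chaperone BSG by 0.36 (adjusted p = 0.0369). SLC16A7, another monocarboxylate transporter, fell by 0.64 (adjusted p = 0.0388).

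The 4 members GAPDH, TPI1, ENO2 and SLC2A3, lie within 1.4 Mb of chromosome 12 (6533927 to 7936275), and their log2 differences at 80 µM were -0.03, -1.59, -0.50 and 1.11.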

How the data were processed

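Raw counts and FPKM per gene were deposited by the authors for 9 libraries. Per the submitters' processing notes, CASAVA 1.8, HISAT2, SAMtools 1.3.1, edgeR and genome GRCh38 were used; the sources used here give no annotation release, counting tool or strand setting. The authors' FPKM equalled counts over a fixed gene length and library total, within 1% for all values of 20 or more counts; these lengths often exceed GENCODE 29 exonic lengths. The counts were tested with edgeR 4.0.16 (R 4.3.3; quasi-likelihood test, TMM scaling, filterByExpr by dose, Benjamini-Hochberg adjustment over 15982 genes), with dose as the only factor; limma 3.58.1 and DESeq2 1.42.0 were alternatives, as were other scalings, filters and leaving out single libraries. The steps were tested on simulated data. Replicates were not copies: chi-square per degree of freedom was 12.7 to 33.2. Counts of 3 set a floor of 0.183 to 0.234 CPM, for counting error only. The members and lists were chosen with earlier results of these data known. CPM in each library is given for called members whose groups did not overlap, with GAPDH, ALDOC and TIGAR added after their values were seen. For related lists the 3 called genes with the smallest p are named. SDC1, MPC1, PDHA1, PDHB and PDK2 were also named, after their values were seen. Levels per GENCODE 29 exonic length were an alternative added after seeing the data.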

Additional observations from a re-analysis of the deposited data

How the results depend on the processing

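Of the 15 members called at 80 µM against control cells, 12 kept their call under all 19 alternatives; ALDOC lost it in 5, PDK3 in 8 and PKM in 3, and the count ran from 13 to 15. No direction reversed. Against 40 µM the count ran from 11 to 16 with single libraries left out, and was 16 with only the 6 libraries compared; without control replicate 3, PFKL, GAPDH, PKM and PDK1 joined the calls. At 40 µM against control cells the count was 0, also with each library left out, except under the DESeq2 Wald test, which called 1 member, PFKM (adjusted p = 0.0263). Replicate numbers did not pair the libraries: deviations of same-numbered libraries correlated at -0.139 to 0.051, and a library correlated best with its own number in 3 of 18 checks. With the replicate block the counts were 15 at 80 µM against control cells, 0 at 40 µM against control cells and 14 at 80 µM against 40 µM. Leaving out mitochondrially encoded genes gave 15, 0 and 12. Without control replicate 3, PGD joined the calls at 80 µM (0.30, adjusted p = 0.036), and without 80 µM replicate 1, ALDOA did (adjusted p = 0.0455). Depth limits PFKP, PFKFB4 and SLC16A1, which had at most 100 counts in every library.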
